A study of Mus musculus with 16 samples.

Results

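The genes described here are 10 genes by which brain endothelium and its barrier are commonly recognised: Cldn5, Cdh5, Pecam1, Esam, Tek, Kdr, Flt1, Slco1c1, Abcb1a and Slc2a1. They were looked up by old or current symbol among the non-control probes of Agilent one-colour mouse arrays, and every probe that carried one of these names was taken. This gave 18 of the 41174 probes. Of these, 14 probes, at least 1 for each of the 10 genes, exceeded background clearly on 4 or more of the 8 arrays and were tested among 27163 probes standing for 17982 genes. Npc1-/- mice (4 arrays) were bred in house from heterozygotes of the line BALB/cNctr-Npc1m1N/J on a BALB/c background, and were set against wild-type mice (4 arrays) of the same line. All were 3 weeks old. The allele is a germline one and not confined to vessels. Each array received Cy3-labelled cRNA made from 500 ng of total RNA of whole cerebellum, and the labels do not say which mouse went to which array.

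Brain capillaries form the blood-brain barrier: their endothelial cells are sealed to each other by tight junctions, take up few substances unspecifically, and move nutrients and drugs with dedicated carriers and pumps. Growth factor receptors of the VEGF and angiopoietin systems keep these vessels alive and shape their growth. Npc1 encodes a membrane protein that exports cholesterol from lysosomes. Mice and people who lack it develop Niemann-Pick disease type C, in which the cerebellum is among the most affected brain regions.

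The probes are 60 bases long, and the first 30 bases are shown for the genes measured at more than 1 place (Flt1, Tek and Cdh5) and for Kdr, whose values are set beside those of Flt1. They are copied 5′ to 3′ from the deposited arrays, in lower case with no base marked. Positions are those of the whole probe in the mm7 build, the build of the array files. Whether a probe lies in a coding or an untranslated exon was not determined, since no annotation of that build was used.
Flt1 A_51_P398723, chr5:146456619-146456678, minus strand: aagtaaagaaaagctatcgggattctctgg
Flt1 A_52_P520859, chr5:146456692-146456751, minus strand: cctgtattattccgattttaataatctaat
Flt1 A_52_P307922, chr5:146532609-146532668, minus strand: caccaagctttgatggcattcaaagatgtc
Kdr A_51_P316553, chr5:75351537-75351596, minus strand: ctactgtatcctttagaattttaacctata
Tek A_51_P130374, chr4:94266776-94266835, plus strand: ctctaatgtgactgtatatactgctcggag
Tek A_52_P234087, chr4:94134402-94134461, plus strand: agttctcatagaacttagcagtgttacccc
Cdh5 A_52_P248604, chr8:102744763-102744822, plus strand: acttattataagactctagttctcacagac
Cdh5 A_51_P309056, chr8:102744103-102744162, plus strand: tccgtcaacttcaggaaaatggcttgtcga
A pair of the Flt1 probes thus start 73 bases apart, while the third, designed to another cDNA, starts 76.0 kb upstream of them in the direction of transcription. The Tek probes start 132.4 kb apart and the Cdh5 probes 660 bases apart.

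Between 22182 and 28137 probes per array were well above background, the fewest on wild-type replicate 2. Npc1 itself was at -2.53, -2.44, -2.32 and -2.60 in Npc1-/- cerebella, against -0.52, -0.40, -0.64 and -0.37 in wild-type cerebella, in the log2 unit used throughout: signal relative to the 75th percentile of the same array. It was lower in all 4 Npc1-/- arrays than in any wild-type array (log2 fold change -1.99 ± 0.11, SE; limma adjusted p = 0.000453), which accords with the labels.

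None of the 10 genes passed the test. Of their 14 tested probes, 0 had a limma adjusted p under 0.05, where 0.523% of all probes tested did, and 0 of 14 lies near that share. The adjusted p-values ran from 0.668 to 0.998. A single probe, of Flt1, had an unadjusted p under 0.05, where 6.51% of all probes did. In 0 of the 14 were all arrays of one genotype above all arrays of the other, where 4.35% of all probes were separated in that way. The log2 fold changes, Npc1-/- minus wild type, ran from -0.19 to 0.36, with 6 above and 8 below zero. Their median of -0.012 lay beside a median of -0.0090 over all probes. The median spread of a member probe between arrays of one genotype was 0.191 on the log2 scale (SD), against 0.209 for all probes. For the 13 probes that were well above background on all 8 arrays, the 95% intervals allowed at most a 1.62-fold lower and a 1.60-fold higher level in Npc1-/- cerebellum. Whole tissue was measured, so fewer endothelial cells and less RNA per cell cannot be told apart, nor could opposite changes of both be seen. No source ties arrays to litters, and the p-values reflect no more than the spread among these arrays.

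**Figure D1:**
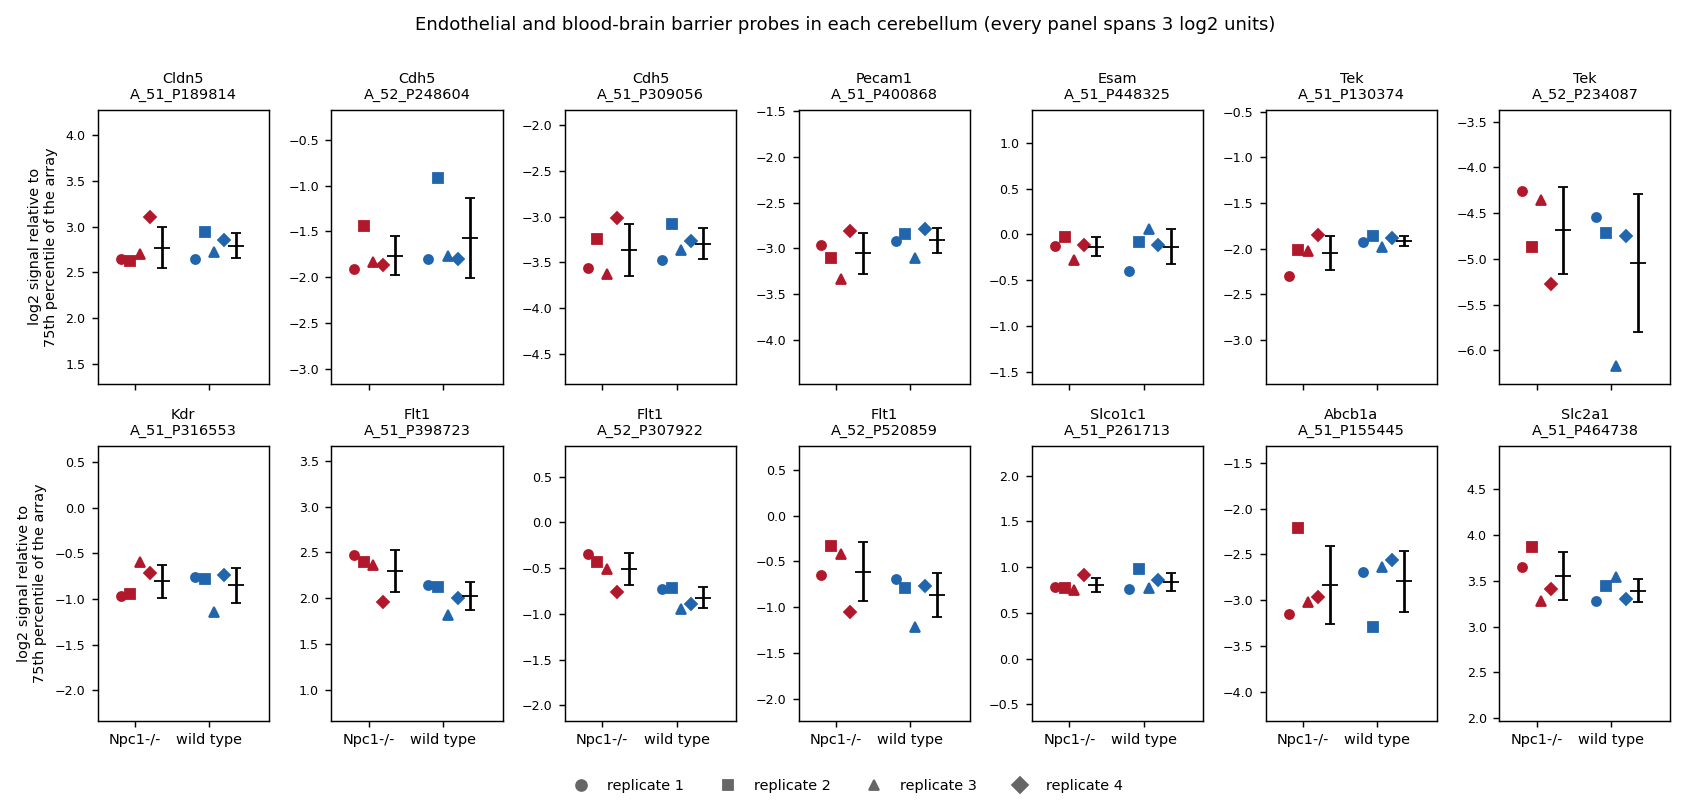
Each panel shows a member probe that was tested, with the log2 signal relative to the array's 75th percentile on the y axis, the 4 Npc1-/- arrays at left in red and the 4 wild-type arrays at right in blue. Black bars give mean and SD; the groups overlap in all 14 panels, and in the 3 Flt1 panels Npc1-/- replicates 1 to 3 lie above every wild-type array.

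The junction and adhesion members differed between genotypes by less than 0.2 on the log2 scale at each of their 5 tested probes, and none passed. Cldn5, the main claudin of brain endothelial tight junctions, was at 2.64, 2.63, 2.70 and 3.10 in Npc1-/- cerebella, against 2.64, 2.94, 2.72 and 2.86 in wild-type cerebella. Its log2 fold change was -0.023 ± 0.135 (SE; limma adjusted p = 0.970), with a 95% interval from -0.33 to 0.28. The wild-type values lie within the range of the Npc1-/- values, which is set by replicate 4 at its upper end. Esam, an adhesion molecule of endothelial contacts that the files list under its old name Esam1, was at -0.13, -0.03, -0.28 and -0.11 in Npc1-/- cerebella, against -0.40, -0.08, 0.06 and -0.12 in wild-type cerebella. The Npc1-/- values of Esam all fell inside the wild-type range, and its fold change of -0.0016 ± 0.120 (limma adjusted p = 0.998) was the one nearest to zero among the members.

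Cdh5 encodes VE-cadherin, the cadherin of endothelial adherens junctions. Its probe A_52_P248604 read -1.91, -1.44, -1.84 and -1.87 in Npc1-/- cerebella, against -1.81, -0.92, -1.77 and -1.80 in wild-type cerebella (log2 fold change -0.19 ± 0.22; limma adjusted p = 0.835). This was the most negative member value, and it rested on a single array: without wild-type replicate 2 it was 0.030. The other Cdh5 probe read between -3.63 and -3.02 in Npc1-/- cerebella and between -3.48 and -3.08 in wild-type cerebella, a log2 fold change of -0.068 ± 0.160.

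Pecam1 encodes CD31, an adhesion molecule that lines endothelial contacts. Its measured probe, printed 10 times on each array, was at -2.97, -3.11, -3.33 and -2.81 in Npc1-/- cerebella, against -2.92, -2.84, -3.10 and -2.79 in wild-type cerebella (log2 fold change -0.14 ± 0.13; limma adjusted p = 0.816). The SD between the 10 spots of one array was 0.0505 to 0.195, and the SD between arrays was 0.222 in Npc1-/- and 0.137 in wild-type cerebella. A further probe that carries the name Pecam1, though its description names another product, was not well above background on any array.

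Among the receptors, Flt1 (VEGF receptor 1, which also has a secreted form that binds the ligand) had a higher mean in Npc1-/- cerebella at all 3 measured probes, but none passed the adjusted test. Flt1 probe A_52_P307922 was at -0.34, -0.43, -0.51 and -0.76 in Npc1-/- cerebella, against -0.72, -0.72, -0.95 and -0.89 in wild-type cerebella. Its log2 fold change was 0.31 ± 0.12, a level 1.24-fold as high, with a 95% interval from 0.042 to 0.58 before adjustment (limma unadjusted p = 0.0284). Its limma adjusted p was 0.668. Npc1-/- replicates 1 to 3 were above every wild-type array here, and replicate 4 was below wild-type replicates 1 and 2.

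Flt1 probe A_51_P398723 was at 2.48, 2.40, 2.37 and 1.96 in Npc1-/- cerebella, against 2.14, 2.13, 1.82 and 2.01 in wild-type cerebella (log2 fold change 0.28 ± 0.14; limma adjusted p = 0.811). Its neighbour A_52_P520859 was at -0.64, -0.33, -0.42 and -1.05 in Npc1-/- cerebella, against -0.70, -0.79, -1.22 and -0.77 in wild-type cerebella (log2 fold change 0.26 ± 0.18; limma adjusted p = 0.811). The same array, Npc1-/- replicate 4, was the lowest of its group at all 3 probes. The 3 probes report the same RNA samples and so are not independent measurements of the genotype difference. Which cells of the whole tissue gave the Flt1 signal was not tested.

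Slides held both genotypes in 3 cases, which allows the Flt1 difference to be read within a slide. At A_52_P307922 Npc1-/- minus wild type was 0.51 on slide 2, 0.17 on slide 3 and 0.22 on slide 4. At A_51_P398723 these differences were 0.58, 0.092 and 0.22, and at A_52_P520859 they were 0.89, -0.059 and 0.27. Of these 9 differences, 8 were above zero, each against a single wild-type array. With the slide as a block in the fit, the log2 fold changes were 0.29, 0.28 and 0.33 in the same order of probes, with limma adjusted p = 0.778, 0.792 and 0.792. No member probe had an unadjusted p under 0.05 in that fit, A_52_P307922 included. Without Npc1-/- replicate 4, the fold changes of the Flt1 probes on the log2 scale were 0.39, 0.39 and 0.40, all with an unadjusted p under 0.05, and the lowest adjusted p was 0.415. Without wild-type replicate 3, which was the lowest wild-type array at all 3 probes, they were 0.27, 0.21 and 0.14, and no member probe had an unadjusted p under 0.05. A further pair of Flt1 probes, upstream of these, were not well above background on any array.

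Kdr encodes VEGF receptor 2, the main signalling receptor for VEGF in endothelium. It was at -0.97, -0.94, -0.60 and -0.71 in Npc1-/- cerebella, against -0.75, -0.78, -1.14 and -0.73 in wild-type cerebella (log2 fold change 0.046 ± 0.135; limma adjusted p = 0.933). The 10 spots of this probe differed by an SD of 0.0395 to 0.0663 within an array, and the SD between arrays was 0.179 in Npc1-/- and 0.195 in wild-type cerebella. The spots share labelling and hybridisation, so their SD leaves out those errors. Another Kdr probe was not well above background on any array.

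The log2 distance between Flt1 (mean of its 3 measured probes) and Kdr on the same array was compared after these values had been seen. It was 1.47, 1.48, 1.08 and 0.76 in Npc1-/- cerebella, against 1.00, 0.98, 1.03 and 0.85 in wild-type cerebella. The mean was 1.20 ± 0.34 in Npc1-/- and 0.964 ± 0.079 in wild-type cerebella (SD, n = 4 each), a difference of 0.24 with a two-sided exact permutation p = 0.286, where the smallest p that 4 against 4 can give is 0.0286. A different change of the 2 VEGF receptors was therefore not shown. The distance depends on both probes' efficiency and is no ratio of transcripts; only its difference between arrays can be read.

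Tek encodes TIE2, the angiopoietin receptor of endothelium. Its probe A_51_P130374 was at -2.30, -2.01, -2.03 and -1.85 in Npc1-/- cerebella, against -1.93, -1.86, -1.98 and -1.88 in wild-type cerebella (log2 fold change -0.13 ± 0.11; limma adjusted p = 0.811). The other Tek probe was dim, well above background on 3 of 4 Npc1-/- and 2 of 4 wild-type arrays. It gave the opposite sign, 0.36 ± 0.38 (limma adjusted p = 0.826), with a 95% interval from -0.52 to 1.23 and a wild-type replicate 3 at -6.17. Without that array its fold change was -0.017 on the log2 scale. The intervals of both Tek probes include zero, and neither settles a direction.

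The transporter members are among the carriers and pumps that govern what crosses the barrier. Slc2a1 encodes GLUT1, the glucose carrier of barrier endothelium, which astrocytes make as well. It was at 3.65, 3.87, 3.28 and 3.41 in Npc1-/- cerebella, against 3.28, 3.44, 3.55 and 3.30 in wild-type cerebella (log2 fold change 0.16 ± 0.14; 95% interval -0.17 to 0.49; limma adjusted p = 0.813). Npc1-/- replicates 1 and 2 were the highest arrays, while replicates 3 and 4 lay within the wild-type range or at its lower edge.

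Slco1c1 encodes OATP1C1, a carrier of thyroxine. It was the most evenly measured member, at 0.79, 0.78, 0.75 and 0.91 in Npc1-/- cerebella, against 0.76, 0.97, 0.77 and 0.86 in wild-type cerebella (log2 fold change -0.036 ± 0.092; 95% interval -0.25 to 0.18; limma adjusted p = 0.924). Slco1c1 is also expressed in choroid plexus, an epithelium attached to the cerebellum. The median level of 10 choroid plexus markers, each centred on its mean over the 8 arrays, ran from -1.58 to 0.92 across Npc1-/- arrays and from -0.27 to 0.40 across wild-type arrays. On Npc1-/- replicate 3, where it was -1.58, Slco1c1 was at 0.75, against 0.78 to 0.91 on the other Npc1-/- arrays.

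Abcb1a encodes P-glycoprotein, the efflux pump that keeps many drugs out of the brain. It was at -3.15, -2.21, -3.02 and -2.97 in Npc1-/- cerebella, against -2.69, -3.29, -2.64 and -2.56 in wild-type cerebella (log2 fold change -0.041 ± 0.240; limma adjusted p = 0.969). By the SD pooled over both genotypes, 0.383, its arrays scattered most among the 13 probes measured throughout, with an SD of 0.425 in Npc1-/- and 0.335 in wild-type cerebella, and its 95% interval ran from -0.59 to 0.51. Abcb4 is an old symbol of Abcb1a, but the probes the files call Abcb4 carry the accession of the separate gene of that name, and they were left out.

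**Figure D2:**
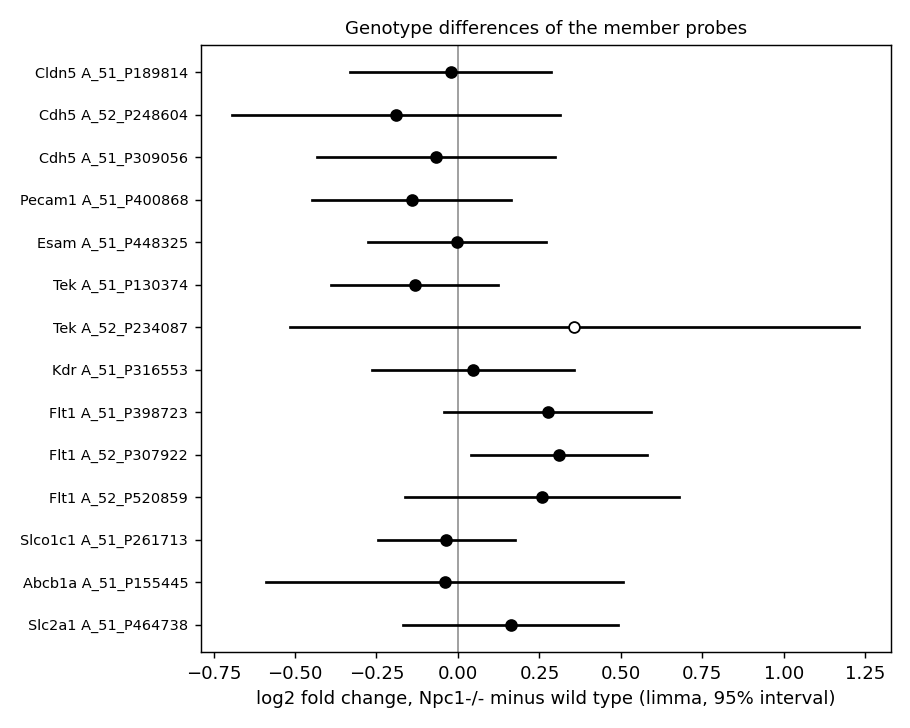
Log2 fold change (x axis, Npc1-/- minus wild type) of each of the 14 tested member probes, with 95% intervals from limma; filled points were well above background on all 8 arrays and the open point, Tek A_52_P234087, on fewer. The interval of 1 Flt1 probe, from 0.042 to 0.58, excludes zero before adjustment, and the other 13 include it.

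The joint level of the members was also read on individual arrays. The mean of the 10 genes, each taken at its brightest probe and centred over the 8 arrays, was -0.069, 0.11, -0.082 and 0.024 in Npc1-/- cerebella, against -0.050, 0.090, -0.055 and 0.032 in wild-type cerebella, all in log2. The genotypes overlapped, and both held arrays above and below zero. Pairs of members did not follow each other closely in general: over the 8 arrays, Pearson's r between brightest probes ran from -0.69 for Tek and Flt1 to 0.86 for Cldn5 and Slco1c1. These values come from 8 arrays that share scaling and RNA quality, and describe these arrays only. The genes whose pattern was most like the members' mean, out of 12570 candidates, were Maea (r = 0.979), Tdrp (0.971), Hs6st3 (0.950), Plekhg1 (0.932) and Limk2 (0.924). Their own log2 fold changes between genotypes ran from -0.32 to 0.054, and none passed the test. Picked as the highest of 12570 correlations over 8 arrays, these r values can be high by selection alone. They show no shared expression with endothelium.

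Further genes of the vessel wall were examined as 8 lists holding 122 genes, of which 115 were tested at their brightest probe. Of these, 2 rose in Npc1-/- cerebellum and 0 fell, where 0.64% of all genes tested passed in either direction. At an unadjusted p under 0.05 there were 9 of the 115, where 7.21% of all genes tested were under it, a similar share. Their median log2 fold change was 0.069, beside -0.015 over all genes, with 75 above and 40 below zero. The lists of junction genes, transporters and pan-endothelial genes, the closest in kind to the members, held 59 tested genes and 0 that passed limma's adjusted threshold, with 6 under an unadjusted p of 0.05, to be read against the same 7.21%.

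None of 13 tight and adherens junction genes passed (median log2 fold change -0.0084). Lsr, of the junctions where 3 cells meet, had 0.19, and Ctnnb1, the catenin that ties cadherins to the cytoskeleton, had -0.057. Jam3, a junctional adhesion molecule, had the lowest p of this list (log2 fold change -0.41, limma adjusted p = 0.257) and was picked after its values were seen. Every Npc1-/- array was below every wild-type array for Jam3, where 4.35% of all probes were separated in either direction. None of 20 barrier transporters and efflux pumps passed (median 0.089): Slc3a2, the heavy chain of amino acid carriers, had -0.00060 and Lrp1, an endocytic receptor, 0.11. Abcb1b, the second P-glycoprotein gene of the mouse and likewise picked afterwards, had 0.35 (limma adjusted p = 0.761).

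None of 26 pan-endothelial genes passed (median 0.063). Itm2a had 0.12 and Bsg, which encodes basigin, 0.0039. Vwf, which encodes von Willebrand factor, had the lowest p of the list (log2 fold change 0.44, limma adjusted p = 0.146) and was chosen after its values were seen. Every Npc1-/- array was above every wild-type array for Vwf, to be read against the same 4.35% of all probes. Within slides 2, 3 and 4 its difference was 0.51, 0.36 and 0.40. None of 15 vascular growth ligands and co-receptors passed (median 0.10), among them Vegfb, a ligand of Flt1, at 0.10 and Hey1, a Notch target, at -0.039. None of 18 genes of the Wnt signalling that induces barrier properties passed (median 0.045). Wnt7a, a ligand that acts on brain endothelium, had -0.24 and Apcdd1 0.033. Of 6 genes of fenestrated or leaky vessels none passed (median 0.099), with Cavin1 and Cavin2, both components of caveolae, at 0.15 and 0.049. Plvap, of the same list and picked after its values were seen, had 0.15 (limma adjusted p = 0.811). Its genotypes did not overlap, though narrowly: the lowest Npc1-/- array was at 0.830 and the highest wild-type array at 0.827.

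The pair of vascular list genes that rose were Icam1 and Anpep. Icam1, an adhesion molecule of activated endothelium that leukocytes and microglia also make, was at -1.55, -1.47, -1.28 and -1.05 in Npc1-/- cerebella, against -2.64, -2.43, -2.99 and -2.51 in wild-type cerebella. The median centred level of the vessel activation list was 0.14 to 0.44 in Npc1-/- cerebella and -0.42 to -0.12 in wild-type cerebella. That median is over 4 genes, Icam1 itself and Ch25h among them, so it is no separate support for a change of the list. Icam1 showed a 2.46-fold rise (log2 fold change 1.30, 95% interval 0.936 to 1.66; limma adjusted p = 0.0117), with every Npc1-/- array above every wild-type array. Of 4 vessel activation genes tested it was the only one to pass. The others were picked afterwards to complete the list. Vcam1 had 0.19 and Ackr1, a chemokine receptor, -0.11, and both overlapped between genotypes. Ch25h, which encodes cholesterol 25-hydroxylase, was well above background on all 4 Npc1-/- arrays and on none of the wild-type arrays (limma adjusted p = 0.146). It was dim and entered the test only through the Npc1-/- arrays, so that split is no support for a rise and no size is given. Sele, Selp and Lcn2 were not well above background on enough arrays to be tested.

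Anpep encodes aminopeptidase N, found on brain pericytes and also on myeloid and meningeal cells. It was at -0.78, -0.83, -0.77 and -0.78 in Npc1-/- cerebella, against -1.66, -1.39, -1.51 and -1.67 in wild-type cerebella, a 1.70-fold rise (log2 fold change 0.77; limma adjusted p = 0.0125) with no overlap. It was the only one of 14 pericyte and smooth muscle markers to pass (median 0.10). Within slides 2, 3 and 4, Npc1-/- minus wild type was 1.51, 1.13 and 1.35 for Icam1 and 0.69, 0.61 and 0.90 for Anpep. With the slide as a block neither gene passed limma's threshold (adjusted p = 0.109 for Icam1 and 0.147 for Anpep), at log2 fold changes of 1.31 and 0.72. Without the filter on dim probes neither passed either (adjusted p = 0.0512 for Icam1 and 0.0637 for Anpep). Anpep also missed it without Npc1-/- replicate 1, 2 or 4 or wild-type replicate 4 (adjusted p = 0.0651, 0.0595, 0.0636 and 0.0524).

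**Figure D3:**
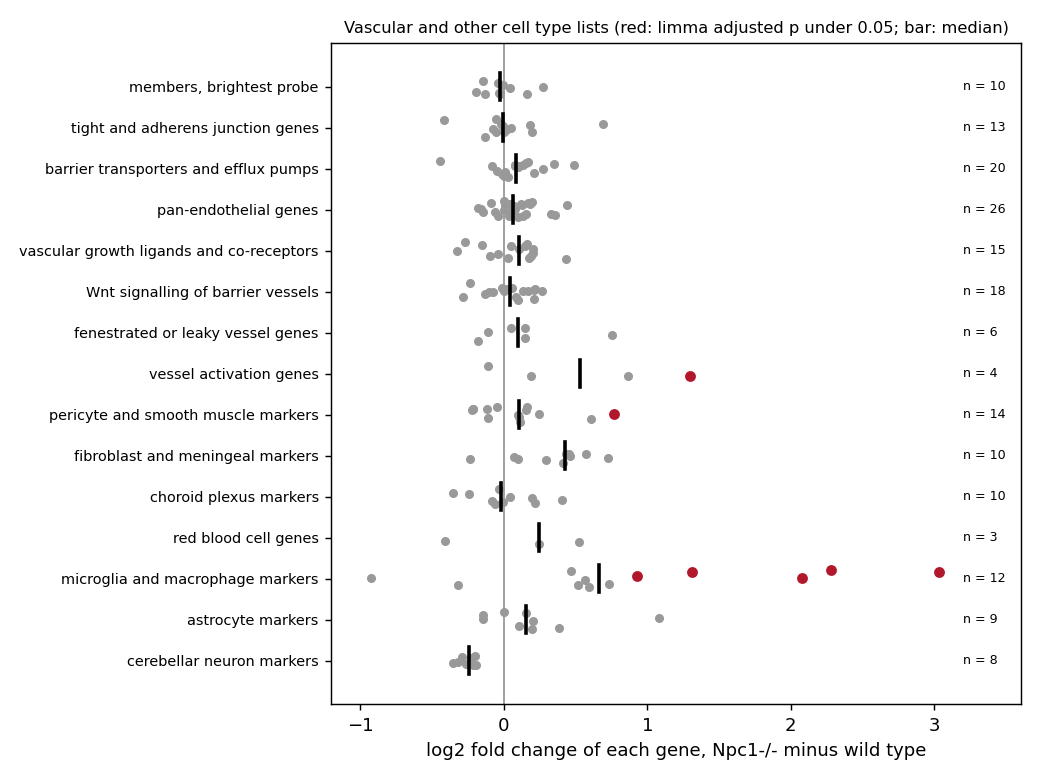
Log2 fold change (x axis, Npc1-/- minus wild type) of every tested gene in the members and in 14 lists, each gene at its brightest probe; black bars are medians and red points passed limma's adjusted threshold. Among the vascular lists, only Icam1 and Anpep are red, while 5 microglia and macrophage markers are.

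Markers of other cells that share the tissue moved as follows beside Icam1 and Anpep. Of 12 microglia and macrophage markers, 5 rose and 0 fell (median 0.66), where 0.64% of all genes tested passed in either direction. Of the 12, 10 were above and 2 below zero. Lyz2, Mpeg1, Cd68, Tyrobp and Ptprc rose by 3.03, 2.28, 2.08, 1.31 and 0.93 on the log2 scale. The pair below zero, scavenger and mannose receptors of macrophages that did not pass, were Cd163 at -0.92 (limma adjusted p = 0.200, no overlap between genotypes) and Mrc1 at -0.32 (adjusted p = 0.811), both named after their values were seen. The summed linear signal of this list was 34.5 to 44.4 times the array's 75th percentile in Npc1-/- cerebella, against 12.3 to 14.5 times in wild-type cerebella. The part of these cells in the Icam1 and Anpep values was not tested. For the members, the corresponding sums were 25.3 to 30.3 in Npc1-/- and 24.3 to 27.5 in wild-type cerebella, and overlapped.

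Of 10 fibroblast and meningeal markers none passed, but 9 were above zero and the median was 0.43. An unadjusted limma p under 0.05 was found for 7 of the 10, where 7.21% of all genes tested had one. The median centred level of that list was -0.00082 to 0.26 in Npc1-/- cerebella and -0.33 to -0.079 in wild-type cerebella, so the genotypes did not overlap. How often other lists of genes separate in this way was not tested, here or for the lists below. The list's summed signal was 27.7 to 37.2 in Npc1-/- cerebella, against 23.1 to 27.5 in wild-type cerebella. Their part in the Anpep value was not tested either. Igf2, which brain barrier tissues and meninges express, had 0.42 (limma adjusted p = 0.640), and Igfbp2 0.074.

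None of 10 choroid plexus markers passed (median -0.018; summed signal 8.63 to 38.1 in Npc1-/- and 21.9 to 35.1 in wild-type cerebella), with Enpp2 at -0.24 and Clic6 at 0.046. None of 3 red blood cell genes passed, which bear on blood left in the vessels: Hba-a1, a haemoglobin gene, had 0.24 and Alas2, of haem synthesis, 0.52, while Slc4a1, the anion exchanger of red cells, had -0.41. Their summed signal was 66.4 to 114.8 in Npc1-/- cerebella, against 50.7 to 116.6 in wild-type cerebella. None of 9 astrocyte markers passed (median 0.16; summed signal 307.4 to 328.0 in Npc1-/- and 306.2 to 373.2 in wild-type cerebella), with Aldoc at 0.0045 and S100b at -0.15. Of these astrocyte markers 7 were above zero and 2 below, and the list's median centred level was 0.0087 to 0.14 in Npc1-/- cerebella and -0.11 to -0.030 in wild-type cerebella, without overlap. Picked after its values were seen, Gfap, the filament protein of reactive astrocytes, had 1.08 (limma adjusted p = 0.0669), with every Npc1-/- array above every wild-type array. Gjb6, a connexin picked in the same way, had 0.38 (limma adjusted p = 0.721). None of 8 cerebellar neuron markers passed, though all 8 were below zero (median -0.24; summed signal 285.2 to 342.1 in Npc1-/- and 323.2 to 424.6 in wild-type cerebella), with Calb1 at -0.22 and Cbln1 at -0.21.

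**Figure D4:**
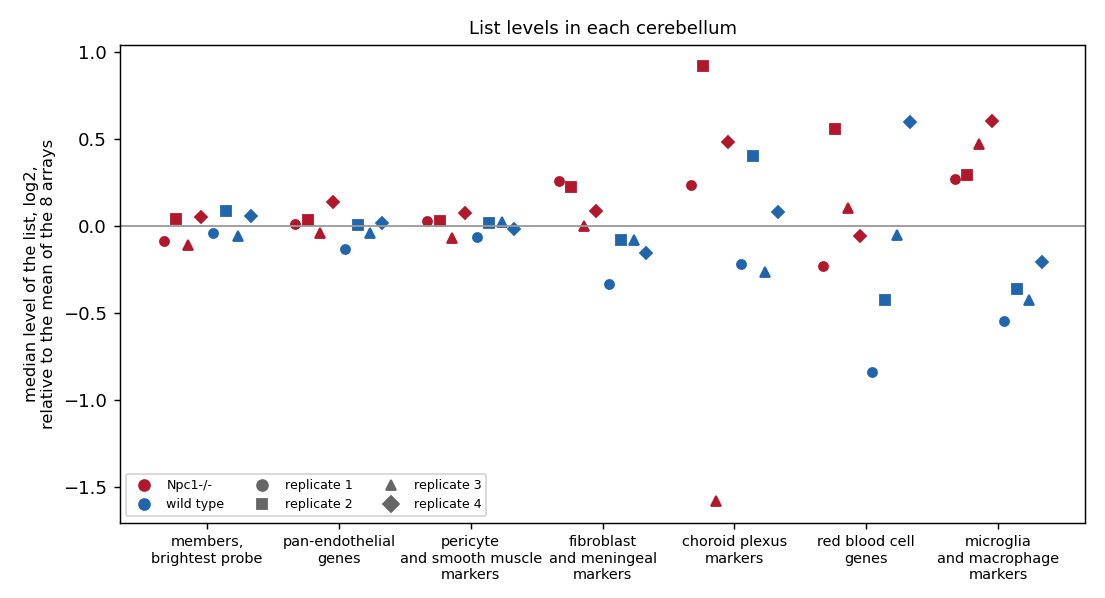
Median log2 level, on each array, of the members and of the genes of 6 of the 14 lists, relative to their mean over the 8 arrays (y axis), with Npc1-/- arrays in red left of wild-type arrays in blue. The median of the member genes stays between -0.11 and 0.086 on all 8 arrays, while single members can lie further out. The microglia and fibroblast lists do not overlap between genotypes, and the choroid plexus list reaches -1.58 on Npc1-/- replicate 3. Of the lists not plotted, the astrocyte list does not overlap either. Nor does the vessel activation list, a median over 4 genes with Icam1 and Ch25h among them.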

How the data were processed

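Agilent intensity values of 8 arrays, 4 per genotype, were deposited as scanned by the authors. The submitters' processing notes name Agilent Feature Extraction 9.5. The processed signals are background-subtracted and detrended, and other deposited flag columns mark spots above background or outlying, per the file headers. Here each processed signal was divided by its array's 75th percentile over non-control spots and put on a log2 scale. Control spots were left out, outlier spots (74 to 115 per array) were set to missing, spots of a probe were averaged, and probes above background on 4 or more arrays were tested. No spot was saturated. The number of arrays limits the precision.

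The two-sided test was limma's moderated one (lmFit, eBayes; version 3.58.1, R 4.3.3), with Benjamini-Hochberg adjustment over all 27163 probes and a threshold of 0.05. A fold change or SE is on the log2 scale, Npc1-/- minus wild type. Lists use each gene's brightest probe. Symbols were updated through a RefSeq table of assembly GRCm38.p6. Alternatives were quantile normalization, normexp background with an offset of 50, filters, blocks, array weights, 1 probe per gene and leaving out each array. The fit was tested on simulated data. Slide and scan order came from the file headers.

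The members and lists were chosen with earlier results of these data known. Named genes were all members, list genes past the threshold (at most 4 per list) or otherwise the 2 brightest tested genes of a list, the 5 genes most correlated with the members, and Npc1. Other genes are marked as picked afterwards, and Ptprc, Slc4a1 and the other activation genes are named only to complete their lists' counts. Bead arrays of the same study list probe numbers without gene names and were not used here.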

Additional observations from a re-analysis of the deposited data

Results flagged for a closer look

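In 8 of 64 groups of 4 arrays, a single array lay far from the other 3 (Dixon's test; chance gives about 1 group in 20). Cldn5 was at 3.10 on Npc1-/- replicate 4, where the other Npc1-/- arrays had 2.63 to 2.70. Cdh5 A_52_P248604 was at -1.44 on Npc1-/- replicate 2 (others -1.91 to -1.84) and at -0.92 on wild-type replicate 2 (others -1.81 to -1.77). The other Cdh5 probe was not set apart on these arrays by that test. Kdr was at -1.14 on wild-type replicate 3 (others -0.78 to -0.73), and the dim probe Tek A_52_P234087 was at -6.17 on the same array (others -4.75 to -4.55). Among the lists, the median centred level of the Wnt genes was -0.15 on wild-type replicate 3 (others 0.011 to 0.034), that of the fenestrated vessel genes -0.16 on Npc1-/- replicate 3 (others 0.11 to 0.13), and that of the astrocyte markers -0.11 on wild-type replicate 1 (others -0.036 to -0.030).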

How the results depend on the processing

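No member probe passed under any of the 17 alternatives run, and the lowest adjusted p of a member was 0.106, with array weights. Over all probes, the number passing was 142 as reported, 90 with quantile normalization, 95 with normexp, 62 without the filter, 85 when all 8 arrays had to be above background, 36 with the slide and 94 with the scan day as a block, 381 with array weights, and 57 to 148 leaving out 1 array. Of 233 member fold changes recomputed, 204 kept and 29 changed their sign, none of them called. Cldn5 was 0.038 with quantile normalization and 0.046 with normexp. Esam was 0.0057 with quantile normalization, 0.037 with normexp and 0.023 with array weights. Abcb1a was 0.12 with the slide and 0.093 with the scan day as a block, and Kdr was -0.093 with array weights. Leaving out 1 array gave -0.13 to 0.029 for Cldn5, -0.30 to 0.030 for Cdh5 A_52_P248604, -0.18 to 0.021 for Cdh5 A_51_P309056, -0.090 to 0.063 for Esam, -0.051 to 0.10 for Kdr, -0.25 to 0.064 for Abcb1a, -0.070 to 0.0092 for Slco1c1 and -0.017 to 0.55 for Tek A_52_P234087. The 3 Flt1 probes stayed above zero in every alternative that held them, at 0.14 to 0.40 leaving out 1 array. The member median was -0.034 to 0.042 leaving out 1 array.

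Of the 2 further vascular genes that passed, 0 did so without the filter, with the slide as a block or with the replicate block, and 1 to 2 did leaving out 1 array. With the replicate block, adjusted p was 0.102 for Icam1 and 0.152 for Anpep. Microglia markers passing were 3 with the slide as a block and 3 with the replicate block, against 5 as reported, and 4 to 5 leaving out 1 array. Deviations of same-numbered arrays correlated at 0.17, 0.014, -0.46 and 0.18, which cannot settle whether replicate numbers pair the samples. With these numbers as a replicate block, 26 of all probes passed. The causes of these shifts were not tested. Each genotype has 4 arrays, and member changes smaller than the printed intervals cannot be seen with them.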
